A study of Mus musculus with 14 samples.

Results

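The genes described here are 10 enzyme genes of serine synthesis and of the folate one-carbon pathway (Mthfd2, Mthfd2l, Mthfd1, Mthfd1l, Shmt1, Shmt2, Phgdh, Psat1, Psph and Aldh1l2), all found by symbol among the 24354 genes of an RNA-seq table of mouse quadriceps muscle. They were selected on their place in the pathway and with the knockout against wild-type difference of Mthfd2 and Psat1 already known, so their values in this comparison are a description and carry no test. The libraries came from HDAC3 Knock-out muscle (3 libraries) and HDAC3 Wild-type muscle (3 libraries). All were from resting male C57BL/6 mice aged 4 months, kept on normal chow and a normal light and dark cycle, and were taken 10 h after lights on (ZT10). HDAC3 is the histone deacetylase of the NCoR and SMRT corepressor complexes. The labels state neither the allele nor a Cre driver, nor whether replicates came from separate animals, so any p-value measures a spread between libraries that may be technical.

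Serine is built from the glycolytic intermediate 3-phosphoglycerate by the enzymes PHGDH, PSAT1 and PSPH, in that order. Serine hydroxymethyltransferases then move a carbon from serine to tetrahydrofolate, SHMT2 in mitochondria and SHMT1 in the cytosol. In mitochondria the carbon is oxidised by MTHFD2 or MTHFD2L, released as formate by MTHFD1L, or oxidised to carbon dioxide by ALDH1L2, and in the cytosol MTHFD1 puts formate back onto folate for purine and thymidylate synthesis. MTHFD2 is known for low levels in most adult tissues and high levels in embryonic and tumour cells. Mthfd2, Psat1, Phgdh and Shmt2 are known targets of ATF4, the transcription factor of the integrated stress response.

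The unit is FPKM (fragments per kilobase, relative to library size), which corrects for gene length, so levels can be set side by side between genes. Values summed to between 464777 and 495099 FPKM in knockout libraries and between 454359 and 484510 FPKM in wild-type libraries. Read numbers are not in the file; the steps between low values put the depth of knockout replicates 1, 2 and 3 at 0.660, 0.832 and 0.674 and that of wild-type replicates 2 and 3 at 0.831 and 1.02, relative to wild-type replicate 1. Hdac3 itself had 5.51, 6.29 and 8.16 FPKM in knockout libraries, against 33.3, 31.0 and 23.7 FPKM in wild-type libraries, so the groups follow their labels. The 7 muscle markers (among them Acta1, Ckm and Tnnt3) summed to between 58086 and 71246 FPKM in knockout and between 62294 and 71776 FPKM in wild-type libraries, and none was called. Wild-type replicate 2 stood apart: its neutrophil markers summed to 464 FPKM, against 3.39 to 7.41 FPKM in knockout libraries and 4.96 and 9.43 FPKM in the other wild-type libraries. In whole muscle, fewer cells of a type and less RNA per cell cannot be told apart.

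Mthfd2 stood far from the other members. It had 47.2, 23.8 and 41.7 FPKM in knockout replicates 1, 2 and 3, against 1.63, 1.44 and 2.35 FPKM in wild-type replicates 1, 2 and 3. Every knockout library lay above every wild-type library, and the lowest knockout value was 10.1 times the highest wild-type value. The means were 37.5 ± 12.2 FPKM in knockout and 1.80 ± 0.479 FPKM in wild type (SD, n = 3 each), a 20.8-fold difference and a log2 ratio of 4.38 ± 0.35 (SE). By level Mthfd2 was between the 1127th and the 2045th most abundant of the 24354 genes in knockout libraries, and between the 8480th and the 9682nd in wild-type libraries. Among the 10501 genes with a mean of at least 1 FPKM over the 6 libraries, its ratio of means was the 11th highest and its difference of log2(FPKM + 1), which favours abundant genes, the 2nd highest.

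Within the knockout, replicate 1 had the lowest Hdac3 (5.51 FPKM) and the highest Mthfd2 (47.2 FPKM), replicate 2 had 6.29 FPKM of Hdac3 and the lowest Mthfd2 (23.8 FPKM), and replicate 3 had the highest Hdac3 (8.16 FPKM) and 41.7 FPKM of Mthfd2. The part of the remaining Hdac3 in this spread was not tested. The 2 knockout libraries with over 40 FPKM were the shallowest of the 6, and the part of depth in this spread was not tested. Leaving out single libraries gave ratios between 18.1 (without knockout replicate 1) and 24.6 (without knockout replicate 2), and the ratio was 18.9 without wild-type replicate 2.

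**Figure D1:**
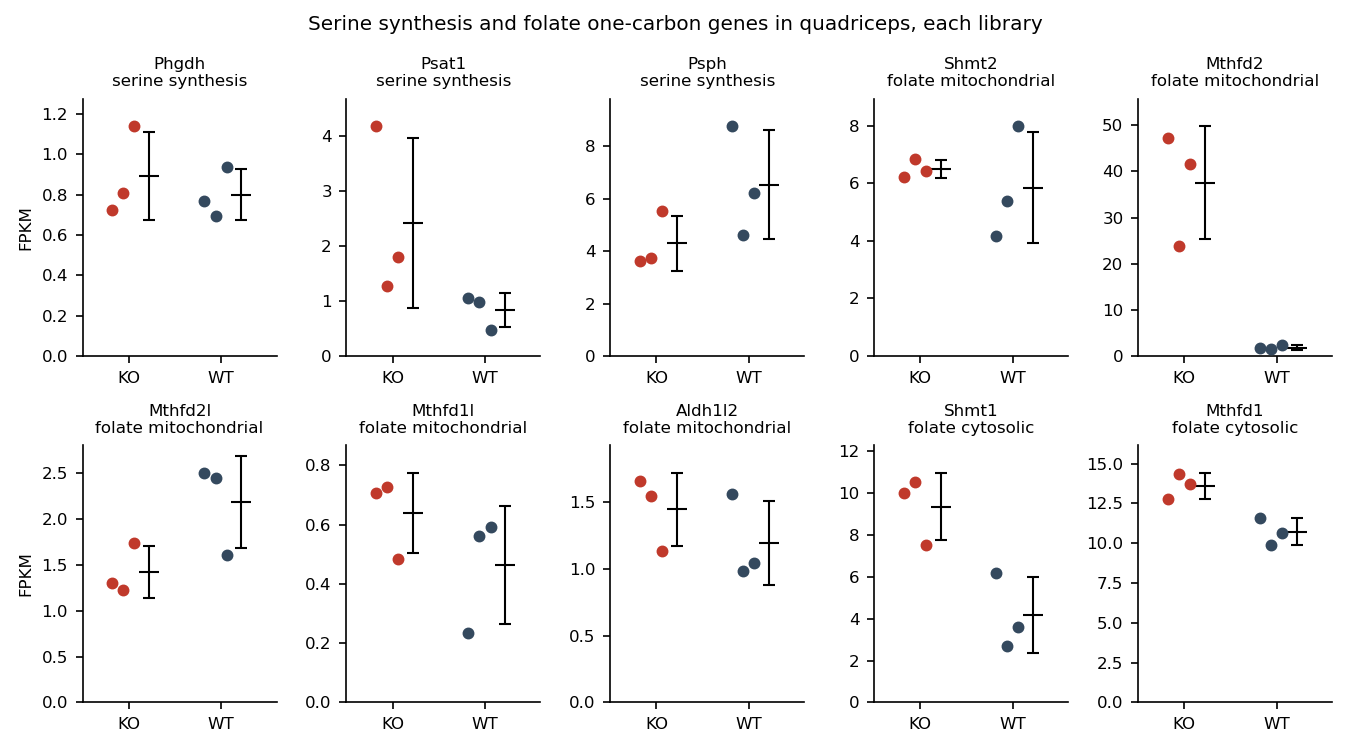
FPKM of each member by library (points), with the group mean and SD (bar) beside them, knockout (KO) left of wild type (WT) in each panel and every axis starting at 0. Mthfd2 spans 23.8 to 47.2 FPKM in knockout and 1.44 to 2.35 FPKM in wild type; Psat1, Shmt1 and Mthfd1 also have no overlap between the groups.

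In serine synthesis the 3 steps had unlike values. Phgdh, the first enzyme, was low in both groups, at 0.726, 0.807 and 1.14 FPKM in knockout and 0.767, 0.692 and 0.939 FPKM in wild-type libraries, and the groups overlapped. Its ratio of means was 1.11, and it was below 1 (0.959) without knockout replicate 3. Psat1, the aminotransferase of the next step, had 4.18, 1.27 and 1.81 FPKM in knockout libraries against 1.05, 0.976 and 0.477 FPKM in wild-type libraries. The groups did not overlap, but knockout replicate 1 was far above the other 2 knockout libraries, and the ratio of means was 2.89 with it and 1.84 without it (log2 ratio 1.53 ± 0.62, SE, n = 3 each). Psph, the phosphatase of the last step, pointed the other way, with 3.64, 3.75 and 5.52 FPKM in knockout and 8.76, 4.62 and 6.23 FPKM in wild-type libraries. Its groups overlapped through knockout replicate 3 and wild-type replicate 2, and the log2 ratio was -0.60 ± 0.34.

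The mitochondrial folate enzymes other than MTHFD2 showed no separation between the groups. Mthfd2l, the paralog that carries out the same mitochondrial reaction, had 1.30, 1.22 and 1.74 FPKM in knockout and 2.504, 2.45 and 1.61 FPKM in wild-type libraries, a log2 ratio of -0.62 ± 0.25 with overlap through one library of each group. Shmt2, which charges mitochondrial folate from serine, had 6.21, 6.85 and 6.43 FPKM in knockout and 4.18, 5.39 and 7.97 FPKM in wild-type libraries. Its knockout values lay within the wild-type range, and without wild-type replicate 1 the ratio of means was 0.973 in place of 1.11. Mthfd1l, which releases formate, was the lowest member in both groups, at 0.484 to 0.728 FPKM in knockout and 0.233 to 0.593 FPKM in wild type. Aldh1l2, the mitochondrial formyltetrahydrofolate dehydrogenase, was at 1.13 to 1.65 FPKM in knockout and 0.986 to 1.56 FPKM in wild type.

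Both cytosolic members were higher in every knockout library. Shmt1 had 10.01, 10.5 and 7.51 FPKM in knockout against 6.18, 2.68 and 3.61 FPKM in wild-type libraries. The nearest values of the groups, 7.51 and 6.18 FPKM, differed 1.22-fold, and the log2 ratio of means was 1.17 ± 0.39 (2.25-fold, and between 1.91-fold without wild-type replicate 2 and 2.97-fold without wild-type replicate 1). Mthfd1, the cytosolic enzyme with synthetase, cyclohydrolase and dehydrogenase activities, had 12.8, 14.4 and 13.7 FPKM in knockout against 11.6, 9.89 and 10.7 FPKM in wild-type libraries. Its difference was small and even, a log2 ratio of 0.35 ± 0.08 (1.27-fold, between 1.22-fold and 1.33-fold with single libraries left out).

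**Figure D2:**
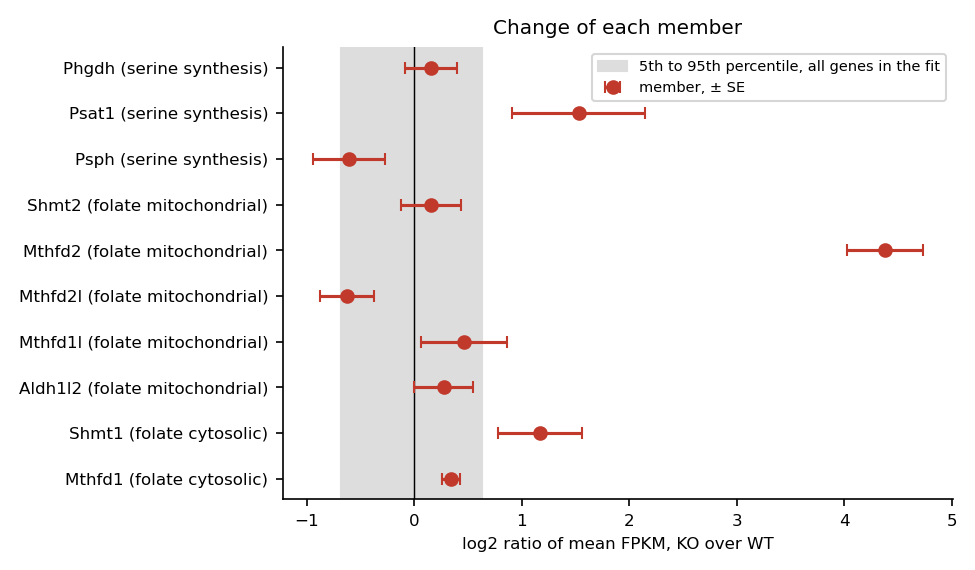
Log2 ratio of mean FPKM, knockout over wild type, with its standard error (n = 3 libraries per group) for each member, ordered by role. The grey band spans the 5th to the 95th percentile of the 10475 genes of the fit with a finite ratio, -0.68 to 0.64; Mthfd2 (4.38), Psat1 (1.53) and Shmt1 (1.17) lie beyond it.

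Across the 10 members, 8 had a higher and 2 a lower mean in the knockout, and their median log2 ratio was 0.31, against a median of 0.00 over all genes of the fit. In 4 members (Psat1, Mthfd2, Shmt1 and Mthfd1) every knockout library was above every wild-type library, in none was it the reverse, and in 6 the groups overlapped. Over the 10501 genes of the fit, 14.2% had every knockout library above and 11.9% every knockout library below every wild-type library. Genes were called at an adjusted p under 0.05 in limma, fitted on log2(FPKM + 1) of all 10501 genes with Benjamini-Hochberg adjustment. Of the 8 members in that fit, Mthfd2 was called, against 3.65% of all genes. Phgdh and Mthfd1l were too low to enter it, and Psat1, at 0.836 ± 0.313 FPKM in wild type, entered through the knockout alone. The authors' deposited table holds a q-value under 0.05 for 3 of the 7 members with a deposited test (Mthfd2, Shmt1 and Psat1), against 10.8% of its tested genes. Shmt1 was called by limma when wild-type replicate 1 was left out. As this contrast was in view when the members were chosen, these counts are given as values only.

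The order of levels differed between the groups. In knockout muscle Mthfd2 came first, followed by Mthfd1 (13.6 ± 0.807 FPKM), Shmt1 (9.35 ± 1.61 FPKM), Shmt2 (6.498 ± 0.323 FPKM) and Psph (4.30 ± 1.06 FPKM), and each of the first 4 was above the next in all libraries. From Psph down, Psph, Psat1, Aldh1l2 and Mthfd2l overlapped from each to the next, as did Phgdh and Mthfd1l, while Mthfd2l lay above Phgdh. In wild-type muscle Mthfd1 came first (10.7 ± 0.852 FPKM), followed by Psph (6.54 ± 2.09 FPKM), Shmt2 (5.85 ± 1.94 FPKM) and Shmt1 (4.16 ± 1.81 FPKM). Those last 3 overlapped from each to the next, and Shmt1 lay above Mthfd2l. Mthfd2 was the 6th of 10 there and overlapped with both neighbours in the order, Mthfd2l and Aldh1l2.

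The share of each gene was also computed in pairs of enzymes that carry out the same reaction. Mthfd2 made up 97.3%, 95.1% and 96.0% of the summed FPKM of Mthfd2 and Mthfd2l in knockout libraries, against 39.4%, 37.1% and 59.3% in wild-type libraries. In wild type the sum of that pair was nearly level, at 4.13, 3.89 and 3.96 FPKM, although the share of Mthfd2 was higher in replicate 3. Shmt1 made up 61.7%, 60.6% and 53.9% of the summed FPKM of Shmt1 and Shmt2 in knockout libraries, against 59.7%, 33.2% and 31.2% in wild-type libraries. Wild-type replicate 1 thus had a share like that of the knockout, and the groups overlapped. All 10 members summed to 78.1 ± 12.1 FPKM in knockout and 34.5 ± 4.46 FPKM in wild type (SD, n = 3 each). Without Mthfd2 the other 9 summed to 40.6 ± 0.941 FPKM in knockout and 32.7 ± 4.30 FPKM in wild type, so Mthfd2 held 47.1% ± 9.12 of the members' FPKM in knockout and 5.23% ± 1.24 in wild type.

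**Figure D3:**
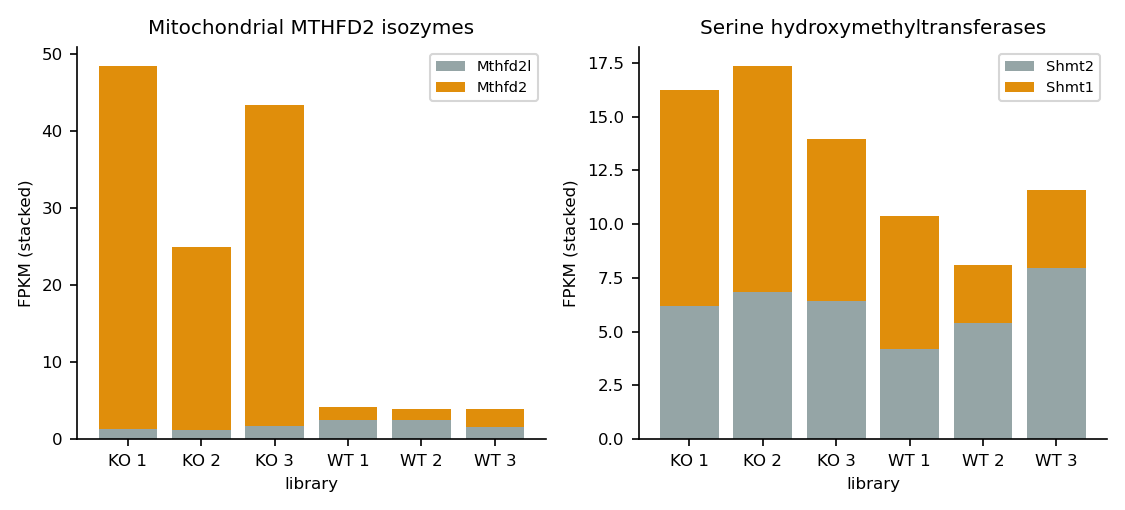
Stacked FPKM of Mthfd2 on Mthfd2l (left) and of Shmt1 on Shmt2 (right) in each library, knockout (KO) left of wild type (WT), axes from 0. The Mthfd2 pair reaches 24.98 to 48.5 FPKM in knockout and 3.89 to 4.13 FPKM in wild type, while the Shmt2 part of the right panel overlaps between the groups.

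The promoter sequences of the members farthest above wild type, Mthfd2, Psat1 and Shmt1, are shown because the deposited table calls these 3. RefSeq promoters (build GRCm38.p6) matched 9 of the 10 members; Aldh1l2 was not matched. Psat1 has 2 annotated starts, and the sequence shown is that of the upstream one. Each sequence is the 250 bases before the annotated start, read 5′ to 3′ on the gene's own strand, and capitals mark CCAAT boxes on either strand. Mthfd2 lies at chr6:83317605-83317854, minus strand, Psat1 at chr19:15925060-15925309, minus strand, and Shmt1 at chr11:60811266-60811515, minus strand.
Mthfd2: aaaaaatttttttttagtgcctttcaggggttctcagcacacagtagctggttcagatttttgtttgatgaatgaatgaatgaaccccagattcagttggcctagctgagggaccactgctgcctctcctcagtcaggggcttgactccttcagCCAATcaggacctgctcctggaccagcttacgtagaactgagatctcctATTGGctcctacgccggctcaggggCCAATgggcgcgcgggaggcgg
Psat1: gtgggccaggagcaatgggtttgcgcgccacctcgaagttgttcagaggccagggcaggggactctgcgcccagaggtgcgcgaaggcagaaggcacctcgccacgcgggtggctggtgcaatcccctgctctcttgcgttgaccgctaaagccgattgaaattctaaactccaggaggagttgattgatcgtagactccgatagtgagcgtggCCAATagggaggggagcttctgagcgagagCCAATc
Shmt1: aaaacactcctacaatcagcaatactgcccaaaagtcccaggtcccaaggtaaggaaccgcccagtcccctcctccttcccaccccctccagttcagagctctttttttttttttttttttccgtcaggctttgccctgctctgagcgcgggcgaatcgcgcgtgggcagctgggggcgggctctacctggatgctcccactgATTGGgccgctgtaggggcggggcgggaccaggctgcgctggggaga

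Mthfd2 holds 3 CCAAT boxes, whose first bases lie 96, 47 and 22 bases before the start. The upstream promoter of Psat1 holds 2, at 36 and 6 bases, while that of its other start holds 0, and Shmt1 holds 1, at 47 bases. Among the other matched members, Phgdh and Psph hold 2 each and Mthfd1 holds 1, while Mthfd1l, Mthfd2l and Shmt2 hold 0. CCAAT, in either direction, was found in 6 of the 10 promoters of the 9 members and in 33.8% of all 32851 promoters of the same length. At least 3 boxes, a count looked up after the Mthfd2 sequence had been seen, were found in 1 of those 10 promoters and in 2.79% of all promoters. The core TGATGNAA of the element bound by C/EBP and ATF factors was found in 0 of the 10 and in 3.45% of all promoters. The E-box CACGTG was found in 0 of the 10 and in 6.02% of all promoters. The nuclear receptor hexamer AGGTCA was found in 1 of the 10, that of Mthfd1, and in 14.0% of all promoters. All were searched on both strands; none of the 4 contains another, though their ends can share letters. A match or its lack says only what these windows hold.

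By profile over the 6 libraries, the genes nearest to Mthfd2 were Srrm4os, Cdkn1a, Tlcd2, Gm5532 and Fos. Likeness was the root-mean-square difference of log2(FPKM + 1), with each gene set to its wild-type mean, and it was 0.47 for Srrm4os, 0.89 for Cdkn1a, 1.03 for Tlcd2, 1.16 for Gm5532 and 1.18 for Fos. Srrm4os, an antisense transcript, had 13.4, 8.93 and 8.995 FPKM in knockout libraries against 0.152, 0.304 and 0.247 FPKM in wild-type libraries. Like Mthfd2 it was highest in knockout replicate 1, whereas Cdkn1a (p21, an inhibitor of cyclin-dependent kinases) and Tlcd2 were highest in knockout replicate 2. The labels do not say whether strand was kept, so part of the reads given to Srrm4os could belong to a transcript of the opposite strand. With each gene set to its wild-type mean, this measure mostly follows the size of the knockout difference, so genes that rose strongly come out nearest. No other member was among the 5, and the measure left little room for one. The difference of log2(FPKM + 1) was 3.74 for Mthfd2 and 1.05 for Shmt1, the next highest member.

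**Figure D4:**
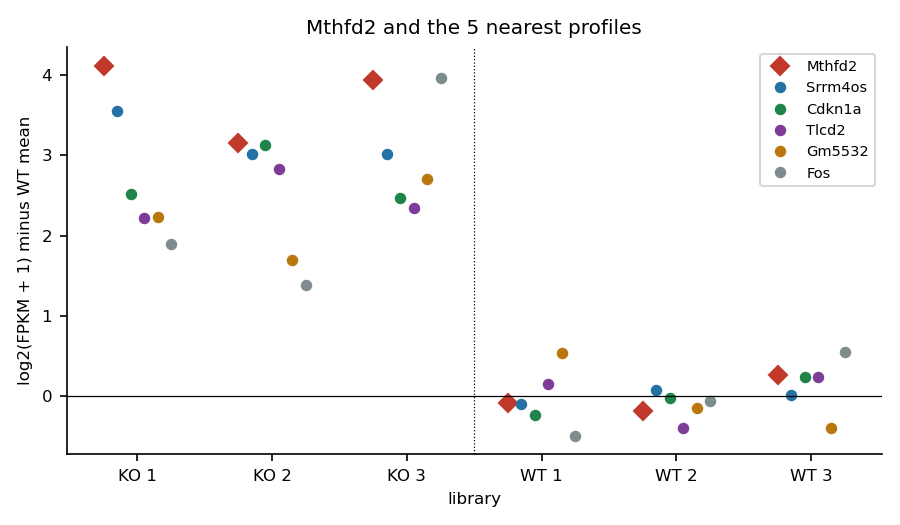
Log2(FPKM + 1) of Mthfd2 (diamonds) and of the 5 genes with the nearest profiles (circles), each minus its mean over wild-type libraries, by library. All 6 genes are above 0 in the 3 knockout libraries, which the choice by nearness to Mthfd2 favours. Fos is much higher in knockout replicate 3 (46.5 FPKM) than in the other 2 (10.4 and 7.01 FPKM).

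The rest of one-carbon metabolism was then examined in 7 lists of 75 further genes, of which 51 were in the fit. Of these, 2 rose and 1 fell, against 2.30% risen and 1.34% fallen among all genes, and the median difference of log2(FPKM + 1) was 0.02, against 0.00 for all genes. Cth, cystathionine gamma-lyase, which makes cysteine from cystathionine, had 6.06, 6.02 and 5.79 FPKM in knockout against 2.502, 0.963 and 1.27 FPKM in wild-type libraries (3.77-fold, log2 ratio 1.91 ± 0.43, limma adjusted p = 0.0189). Ppat, the first enzyme of purine synthesis proper, had 24.3, 26.5 and 21.2 FPKM in knockout against 14.2, 13.1 and 14.6 FPKM in wild-type libraries (1.72-fold, limma adjusted p = 0.0213). Qdpr was the gene that fell, to 7.95, 7.28 and 7.39 FPKM in knockout against 12.3, 15.1 and 12.3 FPKM in wild-type libraries (log2 ratio -0.81 ± 0.11, limma adjusted p = 0.0235). Qdpr recycles tetrahydrobiopterin, the cofactor of aromatic amino acid hydroxylases, and is not an enzyme of the serine to formate route. None of the 3 was called under the replicate block or without knockout replicate 1, 2 or 3 or wild-type replicate 2, with adjusted p between 0.0564 and 0.0977. By the authors' deposited q-value, Cth (0.00119) and Qdpr (0.00729) were under 0.05 and Ppat (0.0516) was not.

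By list, 1 of 5 genes of transsulfuration and glutathione synthesis rose (Cth). Mean FPKM was higher in the knockout for 4 and lower for 1 (Gclm, at 5.64 FPKM in knockout and 5.65 FPKM in wild type). At an unadjusted p under 0.05 in limma, 3 were higher and 0 lower, against 1156 higher and 911 lower of all 10501 genes. The authors' deposited table called 2 as risen, Cth and Gss. Gss averaged 4.66 FPKM in knockout and 2.54 FPKM in wild type, without overlap. It was not called by limma (adjusted p = 0.0544) and has a deposited q-value of 0.0264. In purine synthesis 1 of 12 rose (Ppat), and 7 were higher and 5 lower. Ppat was also the 1 gene of that list with an unadjusted p under 0.05, and the deposited table called none of them. In the other folate cycle genes 1 of 11 fell (Qdpr); the cytosolic formyltetrahydrofolate dehydrogenase gene Aldh1l1, with 3.13 FPKM in knockout and 1.67 FPKM in wild type on average, overlapped between the groups and was not called by limma (adjusted p = 0.166), though it has a q-value of 0.0105 in the authors' deposited table. Limma called none of 10 methionine cycle genes (at an unadjusted p under 0.05, 1 higher and 2 lower), and the authors' deposited table called 2 as fallen. It called none of 10 genes of serine and glycine transport and use, with 1 higher at an unadjusted p under 0.05 and none by the deposited table. It also called none of 2 glycine cleavage genes and not the 1 gene in the fit from choline to glycine, with none at an unadjusted p under 0.05 and none by the deposited table. The authors' deposited table called 3 as risen (Cth, Gss and Aldh1l1) and 3 as fallen (Qdpr, Ahcy and Adi1) among 46 tested genes of the 7 lists.

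**Figure D5:**
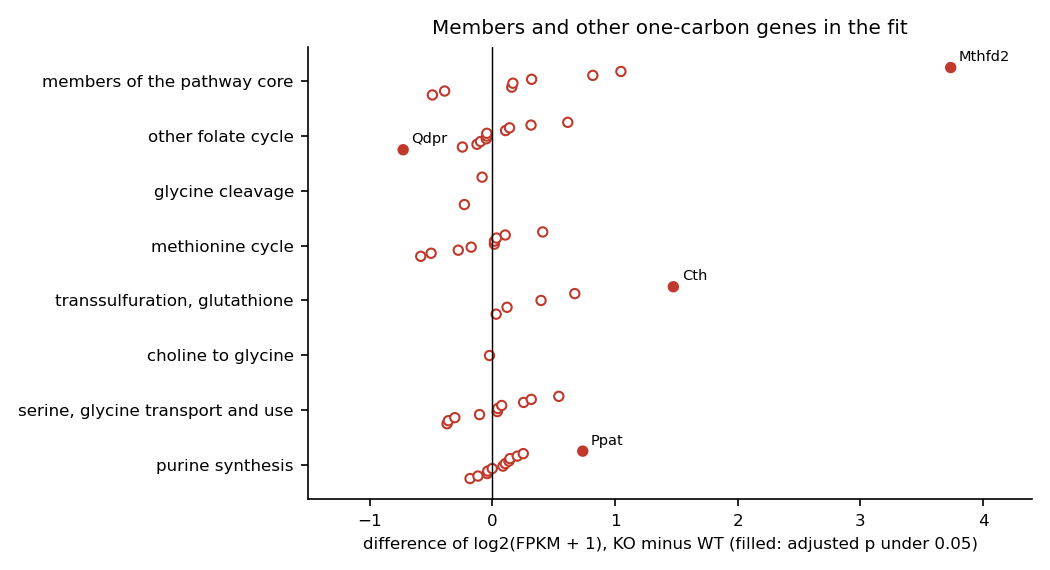
Difference of log2(FPKM + 1), knockout minus wild type, for the members and for 51 other one-carbon genes in the fit, 1 circle per gene. Filled circles passed limma at an adjusted p under 0.05; Mthfd2 lies at 3.74, Cth at 1.48, Ppat at 0.74 and Qdpr at -0.73.

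Of 20 stress genes linked to ATF4, 16 were in the fit, and 5 rose and none fell by limma, against 2.30% risen and 1.34% fallen among all genes. At an unadjusted p under 0.05 in limma, 11 were higher and 0 lower, against 1156 higher and 911 lower of all 10501 genes. The authors' deposited table called 10 of 15 tested as risen and 0 as fallen, against 543 risen and 455 fallen of its 9204 tested genes. Of the 16, 4 (Sesn2, Slc7a5, Trib3 and Asns) averaged under 1 FPKM in wild type and passed the filter through the knockout alone. Sesn2 and Slc7a5 were among the 5 that rose. All 4 were among the 11 with an unadjusted p under 0.05, and Sesn2, Slc7a5 and Asns were among the 10 of the deposited table. The other 3 that rose, with both means over 1 FPKM, were Atf4, Atf5 and Eif4ebp1. Atf4 itself had 265, 212 and 213 FPKM in knockout against 144, 125 and 137 FPKM in wild-type libraries (1.69-fold, limma adjusted p = 0.0230). Several genes of this list were already known to be higher in these libraries when it was written, so its count is not independent evidence of its direction; it was 1 under the replicate block, 3 and 2 without knockout replicates 1 and 3, and 1 without wild-type replicate 2. The call of Atf4 was lost under the block and without any 1 knockout library or wild-type replicate 2 (limma adjusted p between 0.0527 and 0.108).

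Markers of other cell types were set beside these values. None of the 5 macrophage markers, 4 endothelial markers, 4 fibroblast markers, 2 neutrophil markers, 2 adipocyte markers and 1 satellite cell marker in the fit was called by limma; at an unadjusted p under 0.05 the satellite cell marker was lower, and the authors' deposited table called 2 neutrophil markers, 1 fibroblast marker and that satellite cell marker as fallen. Summed macrophage markers were at 30.5 to 57.4 FPKM in knockout and 45.0 to 60.7 FPKM in wild-type libraries, and summed endothelial markers at 56.0 to 57.5 FPKM in knockout and 50.4 to 59.8 FPKM in wild-type libraries. Summed fibroblast markers were at 240 to 350 FPKM in knockout and 316 to 499 FPKM in wild type, adipocyte markers at 5.10 to 27.5 FPKM in knockout and 14.7 to 27.8 FPKM in wild type, and satellite cell markers at 1.72 to 2.58 FPKM in knockout and 3.67 to 5.83 FPKM in wild type. The satellite cell markers were Cdh15 (1.34 to 2.18 FPKM in knockout, 2.24 to 4.62 FPKM in wild type), Myf5 (0.306 to 0.515 and 0.832 to 1.27 FPKM) and Pax7 (0 to 0.0940 and 0.141 to 0.383 FPKM). Each was without overlap between the groups, though Myf5 and Pax7 were below the filter of the fit. Among 6 proliferation genes Pcna, the sliding clamp of DNA polymerase, rose (30.6, 26.7 and 33.8 FPKM in knockout against 20.2, 15.9 and 16.8 FPKM in wild type, limma adjusted p = 0.0294, between 0.0508 and 0.120 with a single library other than wild-type replicate 1 left out and 0.0712 under the replicate block). Mcm2, a subunit of the replicative helicase, had 2.74, 3.27 and 3.43 FPKM in knockout against 1.26, 2.30 and 1.87 FPKM in wild-type libraries, and was not called by limma but has a q-value of 0.0256 in the authors' deposited table. Pcna and Mcm2 were the 2 of the 6 proliferation genes in the fit. Mki67, Top2a, Ccnb1 and Cdk1 were too low to enter it, and their means were lower in the knockout. Mki67 was at 0.171 to 0.252 FPKM in knockout and at 0.225, 2.40 and 0.316 FPKM in wild-type replicates 1, 2 and 3. Top2a had 0.144, 0.153 and 0.188 FPKM in knockout against 0.286, 1.53 and 0.280 FPKM in wild-type libraries, without overlap. Cdk1 had 0.0909, 0 and 0.0891 FPKM in knockout against 0.0600, 0.578 and 0.118 FPKM in wild-type libraries. Each of these low genes was highest in wild-type replicate 2, the library with the high neutrophil markers. The cell type and proliferation markers listed at 0 in all knockout libraries were Ccnb1 and the neutrophil markers Ly6g and Mpo. Ccnb1 was also at 0 in wild-type replicate 1, Ly6g in wild-type replicates 1 and 3, and Mpo in wild-type replicate 3. The part of these genes in the values of the members was not tested.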

How the data were processed

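RNA-seq of quadriceps was analysed from the deposited table of gene expression, for which the submitters' processing notes list TopHat2, Cuffdiff and the build mm9, without versions, annotation or library normalization. Deposited by the authors were the FPKM of each library and, for each gene, its p-value and q-value; the 9204 genes with a deposited p-value under 1 were taken as tested by them. Members and lists were chosen with earlier results of these data known.

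Differences were fitted with limma 3.58.1 (R 4.3.3, with a trend of variance on mean) applied to log2(FPKM + 1) in 10501 genes with a mean of at least 1 FPKM over the 6 libraries, two-sided, with Benjamini-Hochberg adjustment; the scale understates changes of low genes. Ratios are of group mean FPKM with delta-method errors. An exact permutation test of 3 against 3 libraries cannot go below p = 0.1, so none is given. The fit was tested on simulated data. Named genes were the members, up to 3 called genes per list by size, the 5 nearest profiles, and Atf4, Aldh1l1, Pcna, Mcm2, Mki67, Top2a, Cdk1, Ccnb1, Gclm, Gss, Ahcy, Adi1, Atf5, Eif4ebp1, Sesn2, Slc7a5, Trib3, Asns, Ly6g, Mpo, Cdh15, Myf5, Pax7, Stac3 and Appl2, which were chosen after their values were seen. The labels do not say whether replicate numbers pair libraries, and the main fit used no pairing. Alternatives were a pseudocount of 0.1, no filter, scaling to equal sums or upper quartiles, a replicate block, deposited calls and leaving out each library. FPKM carry no read counts, so no counting interval is given. HDAC3 peak lists were not used here: their positions are on mm9, and no gene annotation of that build was used.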

Additional observations from a re-analysis of the deposited data

How the results depend on the processing

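The log2(FPKM + 1) difference of Mthfd2 was 3.74 and lay between 3.55 and 4.27 over 11 alternatives, with its call kept in each. The number of genes called in all, 383, was 247 with no filter on low values, 36 with the replicate block, 998 by the deposited q-value and between 21 and 231 with 1 library left out (45 without knockout replicate 1 or 3, 146 without knockout replicate 2, 211, 21 and 231 without wild-type replicates 1, 2 and 3). Scaling to equal sums gave 314 (170 risen and 144 fallen) and scaling to upper quartiles 347 (191 risen and 156 fallen). The main fit had 242 risen and 141 fallen. The 3 other one-carbon genes called became 5 with upper-quartile scaling, 0 with the replicate block, 6 by the deposited q-value and between 0 and 3 with 1 library left out. The 5 called stress genes linked to ATF4 became 1 with the replicate block, 10 by the deposited q-value and between 1 and 5 with 1 library left out. The 1 called member became 3 by the deposited q-value and between 1 and 2 with 1 library left out. Fewer samples or fewer residual degrees of freedom enter the block and the left-out fits by construction. Left-out fits of the same size still gave unlike numbers of calls, and the cause of the shifts was not tested. Same-numbered libraries deviated together with correlations of 0.04, 0.05 and 0.05 across genes, so the labels' numbers are not taken as a pairing. All 6 libraries correlated best with their own number, but in part by little. Knockout replicate 1 had 0.037 with wild-type replicate 1 and 0.032 with wild-type replicate 2. Deviations were centred within each group, so these correlations are tied together and cannot decide whether libraries were paired. The block ended the calls of Cth, Ppat, Qdpr, Atf4, Pcna, Stac3 and Gm5532, whose differences it left as they were. Gm5532 (limma adjusted p = 0.0184 in the main fit) was also not called without knockout replicate 1 or 3 or wild-type replicate 2 (limma adjusted p between 0.0675 and 0.0847). Without wild-type replicate 1 the limma difference of Shmt2, not called in either fit, was -0.02 in place of 0.17; the other members kept their sign under each alternative they entered. The C/EBP-ATF core with C at the open base was found in 0 of the 10 member promoters, as with any base. The placing of HDAC3 peaks by genes was not run. Low members (Phgdh, Mthfd1l, Aldh1l2, Psat1) lie near or under 1 FPKM in a group, where the steps of single fragments limit the precision. Mthfd2 in wild type (1.63, 1.44 and 2.35 FPKM) and Mthfd2l in knockout (1.30, 1.22 and 1.74 FPKM) were little higher. The size of the Mthfd2 ratio and its share of the pair in wild type carry this limit too.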

Other observations

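The genes next to the members in RefSeq's gene order (GRCm38.p6, protein-coding genes, 3 on each side) were also looked up. Beside Mthfd2, 4 of 6 neighbours were in the fit (Dctn1, Mob1a, Bola3 and Tet3), with ratios of knockout to wild-type mean FPKM between 0.821 and 1.08, and limma called none (0 at an unadjusted p under 0.05, 0 in the authors' deposited table). Over all 10 members, 56 of 60 neighbours were in the table and 31 in the fit. Limma called 1 of the 31, Stac3, 2 genes from Shmt2, which fell (47.2 FPKM in knockout and 69.2 FPKM in wild type on average, limma adjusted p = 0.0279, and between 0.0586 and 0.131 with a single library other than wild-type replicate 3 left out and 0.0779 under the replicate block), and at an unadjusted p under 0.05 there were 4. The authors' deposited table called 2, Stac3 and Appl2. Over all genes limma called 3.65% of the fit, and the deposited table called 10.8% of its tested genes. At an unadjusted p under 0.05 in limma, 1156 of all 10501 genes were higher and 911 lower. Among the 31, the highest ratio was 1.597, for Appl2, 2 genes from Aldh1l2. Limma did not call Appl2 (adjusted p = 0.0766), which has a q-value of 0.0046 in the authors' deposited table.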
